A study of Mus musculus with 4 samples.

Results

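Transcripts of the enzymes and helpers that modify, process and crosslink collagen were followed in mouse osteoblasts, the cells that lay down bone, on a control array at 0 h and on arrays of cells given 10 nM insulin for 6, 12 and 24 h. All 4 groups share serum starvation and a genotype: the growth protocol has the cells lacking the IGF-1 receptor, while the genotype entry reads IGF-1 null, and the sources used here do not settle which is meant. Whether the cells are a line or a primary culture, and of how many animals, the sources used here do not say. Each group has 1 array, so every difference below is between single arrays, with no error, no p-value and no test, and precision is limited by the number of arrays. The set was named by gene: Plod1, Plod2, Plod3, P4ha1, P4ha2, Serpinh1, Bmp1, Lox, Loxl1 and Loxl2. Probe sets whose annotation gives 1 of these symbols alone were taken, which gave 18 probe sets of 9 genes, out of 34945 probe sets of 18193 genes with a single symbol. Loxl2, a lysyl oxidase relative, had no probe set annotated to it alone, so no value is assigned to it.

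Collagen chains are modified inside the endoplasmic reticulum before they fold. Prolyl 4-hydroxylases hydroxylate prolines, which stabilises the collagen helix, and lysyl hydroxylases hydroxylate lysines, which sets where sugars are attached and which crosslinks can form. Folded procollagen is accompanied by a dedicated chaperone and is trimmed outside the cell by procollagen proteinases. In collagen fibrils, lysyl oxidases start the crosslinks by turning lysines and hydroxylysines into reactive aldehydes. In bone, crosslinks built from hydroxylysines give the matrix much of its strength.

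The deposited values are intensities per probe set on a linear scale. Log2 differences between arrays were taken from them, and folds are the same differences on the linear scale. A gene was represented by its brightest probe set, the one with the highest mean log2 intensity over the 4 arrays. Genes were compared where that probe set reached the median of all probe sets, an intensity of 66.2, which held for 11661 genes and for all 9 genes measured here. Of the 18 probe sets, 15 were above this brightness filter. Levels are given per probe set and are not set against those of another probe set, since brightness depends on the probes.

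The control array stood apart from the insulin arrays in ways that touch every difference from 0 h. Array medians of intensity were close, from 64.97 to 65.75. Xist, which coats the inactive X, had intensities of 109, 1636, 1278 and 1463 at 0, 6, 12 and 24 h, and the Y-linked gene Eif2s3y had 12.2, 295, 305 and 326. Chromosome medians of the log2 difference, averaged over the insulin arrays, ran from -0.24 on chromosome 8 to 0.33 on chromosome 4. Between 24 h and 6 h of insulin the chromosome medians ran from -0.016 to 0.012. Igf1r was measured on all 4 arrays, with intensities between 259 and 388, and Igf1 likewise, between 1641 and 6024. Where their probes lie relative to any deleted part, the sources used here do not say.

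Markers of several cell types also moved with the insulin arrays. Of 7 osteoblast markers above the filter, 5 exceeded their 0 h value at least 2-fold at each insulin time, and the summed intensity was 55583 to 67306 on the insulin arrays against 35150 at 0 h. On the control array Sp7, Alpl and Pth1r were below the intensity of the filter (60.8, 61.5 and 36.9), while Col1a1 and Col1a2, the chains of type I collagen, were bright (13802 and 20828). Of 6 macrophage or osteoclast markers above the filter, 5, 5 and 6 were at least 2-fold higher at 6, 12 and 24 h, with a summed intensity of 5805 to 7107 on the insulin arrays against 2062 at 0 h. Likewise, 5 of 6 smooth muscle or myofibroblast markers (summed intensity 43625 to 46283 on the insulin arrays, against 6101 at 0 h), 4 of 5 chondrocyte markers (6362 to 10965 on the insulin arrays, against 970 at 0 h) and 3 of 4 tendon markers (10988 to 13534 on the insulin arrays, against 485 at 0 h) were at least 2-fold higher at each time. Of 4 adipocyte markers 2 were at least 2-fold higher at each time and 2, 1 and 1 lower, with a summed intensity of 3989 to 8205 on the insulin arrays against 10435 at 0 h. Lpl made up most of that sum at 0 h, with 9525, 1492, 2394 and 3035 at 0, 6, 12 and 24 h. Adipoq and Fabp4 were the higher ones, and Pparg was also lower at each time, by less than 2-fold at 12 and 24 h. All sums are led by their brightest markers, such as Col1a1 and Col1a2 for osteoblasts. Only 1 of 6 endothelial markers was above the filter, and it was within 2-fold of 0 h at each time. Sums include markers below the filter, and no marker was listed at 0. The filter takes the mean over all 4 arrays, so a marker bright on the insulin arrays alone can pass it. Besides Sp7, Alpl and Pth1r, this held for Adipoq, Col9a1, Myh11, Cnn1, Actg2, Cd68, Ctss, Acp5, Tnmd and Scx. Of all genes compared, 10.6%, 11.7% and 11.1% were at least 2-fold higher at 6, 12 and 24 h, and 4.62%, 5.31% and 4.82% lower. The part of these cell types, and of whatever set the control array apart, in the differences below was not tested. The series has no array of cells without insulin at 6, 12 or 24 h. Insulin, hours since 0 h and the single control culture therefore cannot be told apart in any difference from 0 h. In RNA from whole cultures, fewer cells of a type and less RNA per cell cannot be told apart.

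**Figure D1:**
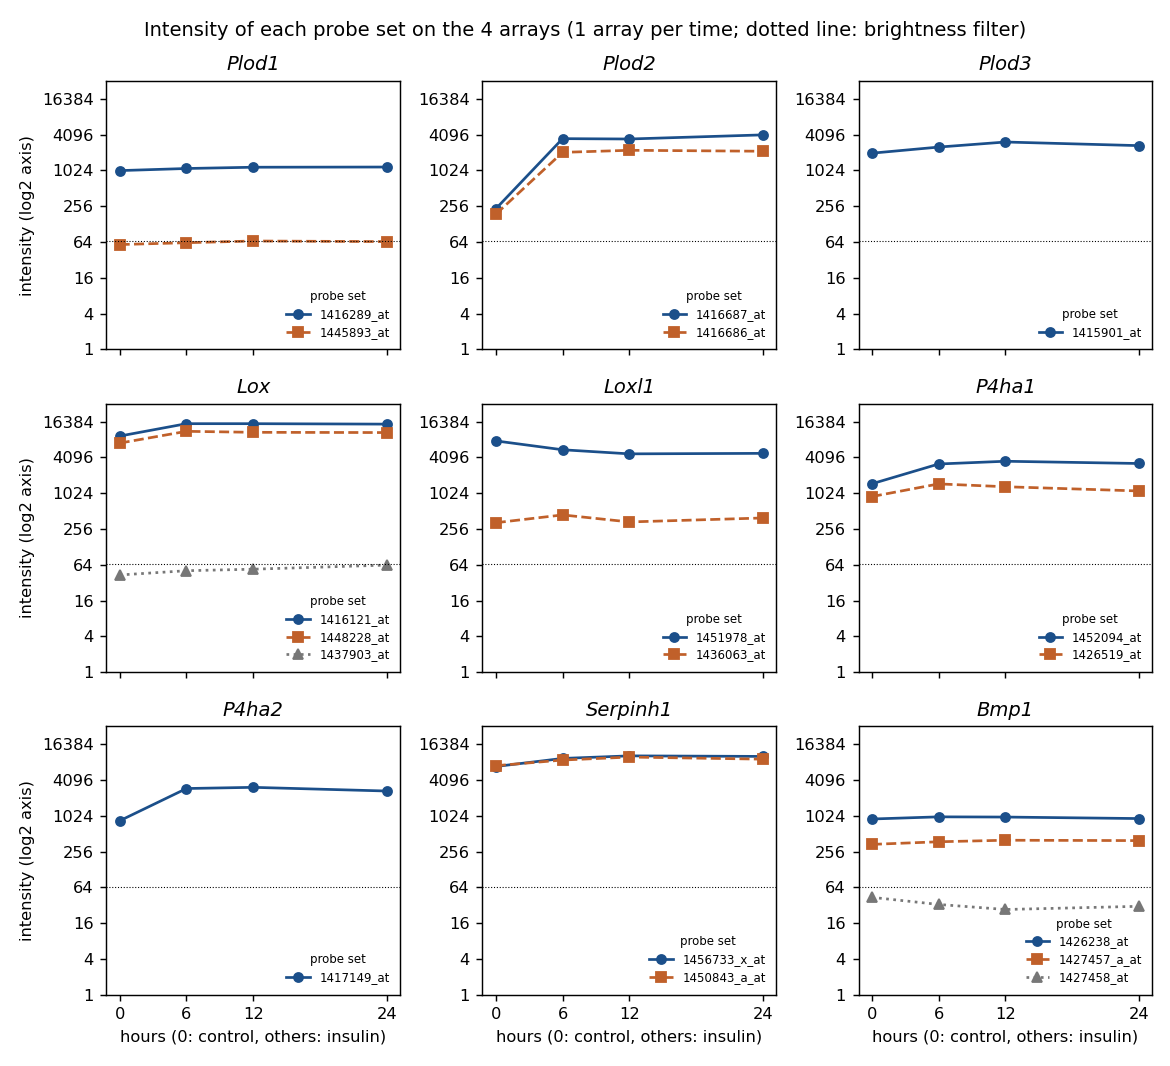
Intensity of each of the 18 probe sets (log2 axis) against hours, with the control array at 0 h and the insulin arrays at 6, 12 and 24 h, 1 array each. Lines join values of 1 probe set and the dotted line is the brightness filter of 66.2. Both Plod2 probe sets sit between 2066 and 4069 on the insulin arrays and at 188 and 232 at 0 h, while Plod1 stays between 1019 and 1170.3 by its brightest probe set.

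The lysyl hydroxylases moved unequally. Plod2, which hydroxylates lysines in the telopeptides at the ends of the collagen chain, was at least 11.0-fold higher on each insulin array than on the control array by both of its probe sets. Plod1, which acts on lysines in the helix, and Plod3, which also adds sugars to hydroxylysine, differed from 0 h by at most 1.54-fold by their brightest probe sets. By its brightest probe set (1416687_at), Plod2 had intensities of 232, 3515, 3467 and 4069 at 0, 6, 12 and 24 h, which is 15.2, 14.97 and 17.6-fold higher than at 0 h. The insulin arrays all lay far above the control array and within 0.23 log2 of one another. The other Plod2 probe set (1416686_at) had 188, 2066, 2238 and 2158. Its folds of 11.0, 11.9 and 11.5 were lower than those of the brighter one but of the same direction at each time. On the control array as well, both probe sets were above the filter intensity of 66.2.

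Plod1 had 1019, 1106, 1161 and 1170.3 by probe set 1416289_at, or log2 differences from 0 h of 0.12, 0.19 and 0.20. The control array was the lowest, and its gap of 0.12 to the nearest insulin array was close to the range of 0.08 over the insulin arrays. Plod1 lies on chromosome 4, whose genes had a median log2 difference of 0.33 over the insulin arrays, above the 0.17 of Plod1 itself. With chromosome medians removed, the Plod1 differences were -0.19, -0.18 and -0.12. The dim Plod1 probe set (1445893_at), below the filter, had 58.0, 62.3, 66.6 and 65.1.

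Plod3 had 2001, 2535, 3085 and 2681 by its single probe set, or 1.27, 1.54 and 1.34-fold of 0 h. The highest value was at 12 h and the lowest on the control array. Within the lysyl hydroxylases, by brightest probe sets, the change of Plod2 relative to 0 h was 13.98, 13.1 and 15.3 times that of Plod1 at 6, 12 and 24 h, and 11.98, 9.71 and 13.1 times that of Plod3. These are ratios of folds and not of levels.

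Both prolyl 4-hydroxylase alpha subunits in the set, P4ha1 and P4ha2, were higher on the insulin arrays. P4ha2 had 847, 2959, 3097 and 2685 at 0, 6, 12 and 24 h, which is 3.49, 3.66 and 3.17-fold of 0 h by its single probe set. All 3 insulin arrays lay above the control array, and the range among them was 0.21 log2. P4ha1 had 1474, 3174, 3529 and 3236 by its brightest probe set (1452094_at), or 2.15, 2.39 and 2.20-fold. Its other probe set above the filter (1426519_at) had 899, 1467, 1315 and 1116, or 1.63, 1.46 and 1.24-fold. The direction was the same, but only the brighter probe set passed 2-fold, and the gap of the dimmer one to the control array (0.31 log2) was smaller than its range over the insulin arrays (0.40). With the mean of both probe sets the P4ha1 log2 differences were 0.91, 0.90 and 0.72, and with chromosome medians removed they were 0.99, 1.12 and 1.01, so that the 2-fold mark was missed at all 3 times in the first case and at 6 h in the second.

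The RefSeq table of promoters, in build GRCm38.p6, matched 5 of the 10 genes: Plod1, Plod3, P4ha1, P4ha2 and Serpinh1. Each sequence runs from 250 bases before to 50 bases after the annotated start. Those of P4ha1 and P4ha2 are shown because these genes were higher together, and that of Plod1 because it hardly differed from 0 h. They lie at chr10:59323046-59323345 on the + strand (P4ha1), chr11:54100674-54100973 on the + strand (P4ha2) and chr4:147936727-147937026 on the - strand (Plod1). Capitals mark the words ACGTG and GCGTG on either strand, letters that form the core bound by hypoxia-inducible factors, which are known to act on collagen hydroxylase genes.
P4ha1: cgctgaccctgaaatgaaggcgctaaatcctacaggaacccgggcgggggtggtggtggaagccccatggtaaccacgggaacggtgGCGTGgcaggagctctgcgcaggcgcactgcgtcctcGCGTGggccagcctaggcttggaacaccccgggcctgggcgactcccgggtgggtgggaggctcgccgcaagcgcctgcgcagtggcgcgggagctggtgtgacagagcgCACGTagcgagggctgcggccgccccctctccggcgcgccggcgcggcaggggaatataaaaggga
P4ha2: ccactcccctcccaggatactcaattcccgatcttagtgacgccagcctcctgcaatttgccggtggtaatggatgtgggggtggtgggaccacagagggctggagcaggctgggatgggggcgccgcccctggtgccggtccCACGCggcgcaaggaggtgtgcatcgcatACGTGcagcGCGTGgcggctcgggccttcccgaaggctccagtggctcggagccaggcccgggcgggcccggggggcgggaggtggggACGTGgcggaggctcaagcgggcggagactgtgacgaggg
Plod1: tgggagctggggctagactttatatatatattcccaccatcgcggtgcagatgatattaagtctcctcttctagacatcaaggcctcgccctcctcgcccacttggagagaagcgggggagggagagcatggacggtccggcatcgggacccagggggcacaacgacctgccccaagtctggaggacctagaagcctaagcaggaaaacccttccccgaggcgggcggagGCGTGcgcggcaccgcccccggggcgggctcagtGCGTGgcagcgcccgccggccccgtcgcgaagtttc

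ACGTG was found 1 time in the P4ha1 promoter, 2 times in that of P4ha2 and 0 times in that of Plod1, and GCGTG was found 2 times in each of them. The promoters of Plod3 and Serpinh1 held ACGTG 1 time each, and GCGTG 3 and 0 times. Of 32851 promoters of the same length, 19.6% held ACGTG, 32.4% held GCGTG and 43.8% held at least 1 of them. This background was not matched for the share of G and C. That share was 70.3% for P4ha1 and for P4ha2, 64.3% for Plod1, 53.3% for Plod3 and 62.3% for Serpinh1. Matches were counted on each strand and could overlap. A match in these letters is a description of the sequence and says nothing of binding.

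Serpinh1, the chaperone that binds folded procollagen, was somewhat higher on the insulin arrays by both probe sets. The brighter (1456733_x_at) had 6944, 9497, 10487 and 10267 at 0, 6, 12 and 24 h, or 1.37, 1.51 and 1.48-fold. The other (1450843_a_at) had 7165, 8918, 10006 and 9226, or 1.24, 1.40 and 1.29-fold. On both, the control array was the lowest and the 12 h array the highest. Serpinh1 lies on chromosome 7, whose genes had a median of 0.21, and with chromosome medians removed its log2 differences were 0.27, 0.35 and 0.36.

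Bmp1, the proteinase that removes the C-terminal propeptide of procollagen and also activates lysyl oxidase, was within 1.18-fold of 0 h by both probe sets above the filter. Its brightest probe set (1426238_at) had 908, 987, 979 and 924, within 1.09-fold of 0 h at each time. The second (1427457_a_at) had 340, 376, 399 and 393, up to 1.18-fold. The dimmest (1427458_at), below the filter, pointed the other way with 43.6, 33.1, 27.2 and 30.8. For the brightest probe set the gap between the control array and the nearest insulin array, 0.025 log2, was smaller than the range of 0.096 over the insulin arrays, so the control array did not stand apart. With chromosome medians removed, or with the mean of all 3 probe sets, its difference was negative at each time, and with quantile normalization it was negative at 24 h.

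Lox and Loxl1 differed from 0 h in opposite directions by their brightest probe sets, but not by the other Loxl1 probe set above the filter. Lox, the main enzyme of the family in connective tissue, was bright on all arrays, with 9365, 15138, 15133 and 14877 at 0, 6, 12 and 24 h by probe set 1416121_at, or 1.62, 1.62 and 1.59-fold of 0 h. A second probe set (1448228_at) had 7131, 11255, 10832 and 10731, or 1.58, 1.52 and 1.505-fold. The insulin arrays differed by only 0.025 log2 on the first and 0.069 on the second, far less than the gaps of 0.67 and 0.59 to the control array. The dimmest, below the filter (1437903_at), had 43.1, 50.8, 53.9 and 63.2.

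Loxl1, best known for crosslinking elastin, was lower on the insulin arrays by its brightest probe set (1451978_at), with 7767, 5510, 4701 and 4794. That is 1.41, 1.65 and 1.62-fold lower than at 0 h, and the control array was the highest. Its other probe set above the filter (1436063_at) pointed the other way, with 326, 441, 336 and 392. There the gap to the control array was 0.043 log2 and the insulin arrays spread over 0.39. Loxl1 lies on chromosome 9, whose genes had a median of 0.21. With chromosome medians removed, the log2 differences of its brightest probe set were -0.69, -0.97 and -0.91. With the mean of both probe sets the Loxl1 differences were -0.029, -0.34 and -0.22, so a lower Loxl1 rests on 1 probe set.

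**Figure D2:**
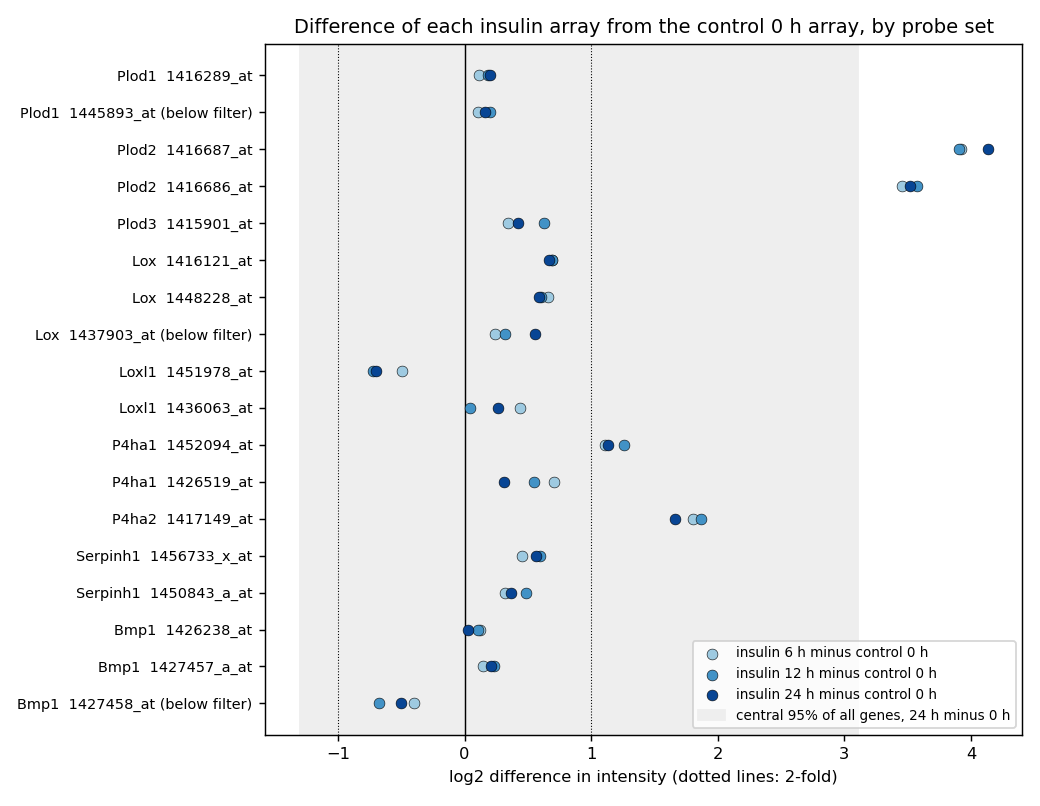
Log2 difference of each insulin array from the control 0 h array for the 18 probe sets, 1 row per probe set, with dots for 6, 12 and 24 h. The grey band is the central 95% of 11661 genes at 24 h and dotted lines mark 2-fold. Only the Plod2 probe sets lie outside the band, P4ha2 and the brighter P4ha1 probe set lie beyond 2-fold, and the brightest Loxl1 probe set lies below 0.

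Counted by brightest probe set, 3 of the 9 genes (Plod2, P4ha1 and P4ha2) exceeded the control array at least 2-fold at 6, 12 and 24 h, where 10.6%, 11.7% and 11.1% of all genes compared were. None was at least 2-fold lower, where 4.62%, 5.31% and 4.82% of all genes were. At 1.5-fold, 4, 6 and 4 of the 9 were higher, against a background of 18.6%, 20.5% and 19.5%, and 0, 1 and 1 were lower, against 12.8%, 13.3% and 13.3%. Lox was higher at that size at every time, Plod3 and Serpinh1 at 12 h alone, and the gene that was lower was Loxl1. The median log2 differences of the 9 genes were 0.45, 0.62 and 0.56, and those of all genes 0.0058, 0.033 and -0.00012. Plod2 was above 98.8%, 98.6% and 98.7% of all genes, P4ha2 above 95.01%, 94.6% and 93.9% and P4ha1 above 90.5%, 91.1% and 90.3%. Loxl1 was above only 15.9%, 9.9% and 10.2% of them. By any amount, the control array lay below all 3 insulin arrays in 8 of the 9 genes, against 44.7% of all genes, and above all 3 in 1, against 42.5%. Over the 15 probe sets above the filter, several of which share a gene, these counts were 14 and 1, against 41.9% and 44.4% of all such probe sets. The 8 genes include Plod1 and Bmp1, whose differences were negative at each time with chromosome medians removed. The 3 differences share the control array, so their likeness across times is not a repeat.

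Differences between insulin arrays do not use the control array. By brightest probe set, no member differed by 1.5-fold between any pair of insulin arrays. At least 2-fold higher were 0.0257% of all genes at 12 h against 6 h, 0.429% at 24 h against 6 h and 0.00858% at 24 h against 12 h, and at least 2-fold lower 0.0172%, 0% and 0%. The background for at least 1.5-fold higher was 1.14% at 12 h against 6 h, 1.68% at 24 h against 6 h and 0.103% at 24 h against 12 h, and for at least 1.5-fold lower it was 0.334%, 0.12% and 0.103%. Over the 9 genes, the range among the 3 insulin arrays had a median of 0.15 log2, from 0.025 for Lox to 0.28 for Plod3, against 0.16 for all genes. Plod3 was 1.22-fold higher at 12 h than at 6 h (3085 against 2535), above 92.8% of all genes, and 1.15-fold lower at 24 h than at 12 h (2681 against 3085), above only 7.8%. Plod2 was 1.17-fold higher at 24 h than at 12 h by its brightest probe set (4069 against 3467), above 95.1% of all genes, but its other probe set was 1.04-fold lower (2158 against 2238). P4ha2 was 1.15-fold lower at 24 h than at 12 h (2685 against 3097). Loxl1 was 1.17-fold lower at 12 h than at 6 h (4701 against 5510), and its dimmer probe set was 1.31-fold lower (336 against 441). The largest difference between insulin arrays among the probe sets above the filter was that of the dimmer P4ha1 probe set, 1.32-fold lower at 24 h than at 6 h (1116 against 1467), while the brighter one was 1.02-fold higher (3236 against 3174).

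**Figure D3:**
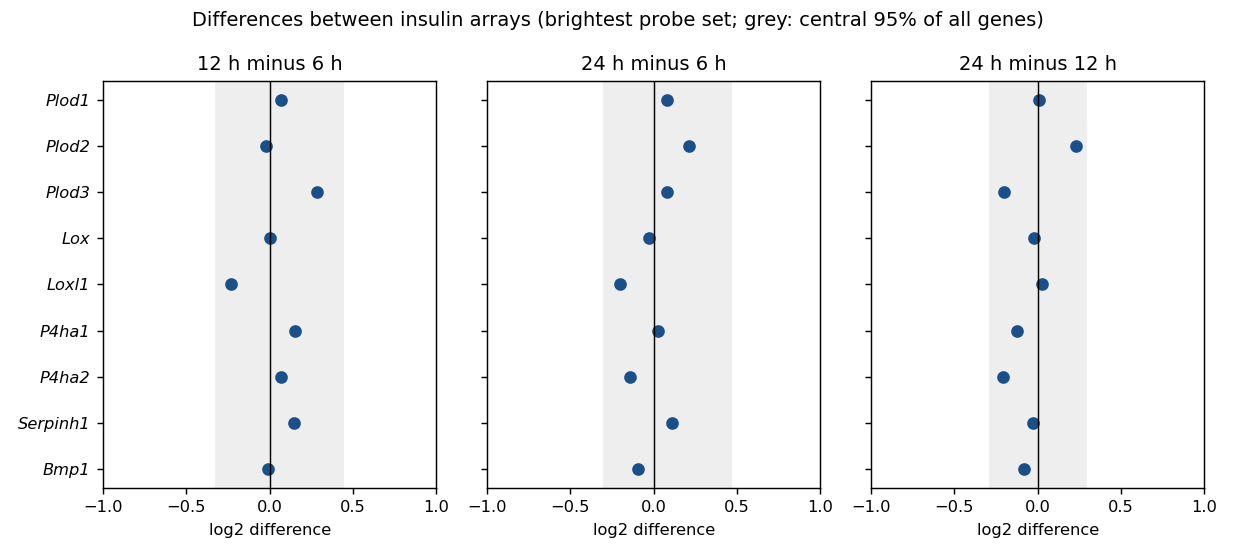
Log2 difference between pairs of insulin arrays for the brightest probe set of each of the 9 genes, with the central 95% of 11661 genes in grey. All dots lie inside the grey bands, whose edges are at -0.32 and 0.44 for 12 h minus 6 h, at -0.30 and 0.46 for 24 h minus 6 h, and at -0.29 and 0.29 for 24 h minus 12 h.

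The remaining genes of the pathway were read from a list of 38 that holds none of the genes named at the start, of which 34 had a probe set with that symbol alone and 31 were above the filter. Relative to the control array, 12, 12 and 12 of them were higher by 2-fold or more at 6, 12 and 24 h, and 1, 1 and 1 lower, against the backgrounds for those sizes given above. The filter takes the mean over all 4 arrays, here as in the background, so a gene bright on the insulin arrays alone can pass it. That held for P4ha3, P3h2, Tll1, Tgm2 and Col11a2, which were below the filter intensity at 0 h and are counted as higher. The count thus depends in part on the filter. The list medians were 0.70, 0.76 and 0.78. Of 11 modification genes 5 were at least 2-fold higher at each time, of 6 processing genes 2, of 5 crosslinking genes 2 and of 9 collagen chains 3. The 1 gene that was lower was Col5a3.

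Among the modification genes, P4ha3, the remaining alpha subunit of prolyl 4-hydroxylase, had 57.7, 697, 868 and 709 at 0, 6, 12 and 24 h. It was below the filter intensity at 0 h, so the low value sets its fold. P3h3 and P3h2, of the prolyl 3-hydroxylase family, had 189, 964, 1070.0 and 1010.4, and 64.8, 209, 295 and 243. Fkbp14, a prolyl isomerase of the endoplasmic reticulum that acts on collagen, had 834, 2206, 2112 and 2137. P4hb, the beta subunit shared by the prolyl 4-hydroxylases, falls outside the naming rule and was named after its values were seen. It had 8870, 10406, 11154 and 10793 at 0, 6, 12 and 24 h, a smaller difference from 0 h than in P4ha1 or P4ha2.

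Among the processing genes, Tll1, a tolloid proteinase related to Bmp1, had 17.7, 655, 680 and 569. Its control value was near the floor of the array, so the low value sets its fold. For Bmp1 the dimmest probe set was below the filter intensity on all 4 arrays, and the others were above it. Pcolce2, an enhancer of the procollagen C-proteinase, had 81.8, 236, 221 and 292. Creb3l1, a transcription factor of collagen secretion in osteoblasts, had 1147, 1901, 2041 and 2164, and Mia3, which helps load procollagen into carriers, had 983, 1392, 1445 and 1738. Neither of these 2 reached 2-fold.

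Among the crosslinking genes, Tgm2, a transglutaminase, had 65.9, 842, 1087 and 1083. Loxl3, a lysyl oxidase relative, had 836, 1841, 1775 and 1707, which is 2.20, 2.12 and 2.04-fold of 0 h. Loxl4 had 285, 307, 341 and 309, and its other probe set above the filter pointed the other way. Fn1, the fibronectin on which collagen fibrils assemble, had 12867, 21423, 21747 and 21566.

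Among the collagen chains that these enzymes act on, 3 chains found in cartilage were at least 2-fold higher at each time. Col2a1 had 239, 3151, 4643 and 5209, Col11a1 had 662, 2694, 3429 and 3312, and Col11a2 had 63.8, 204, 307 and 331. Col11a2, P3h2 and Tgm2 were below the filter intensity at 0 h. Col5a3, a minor fibrillar chain, was 3.91, 4.05 and 3.92-fold lower, with 831, 212, 205 and 212. Col1a1 and Col1a2, which fall outside the naming rule too, were each less than 2-fold from 0 h at every time by their brightest probe sets. The other Col1a1 probe set pointed the other way. Both chains were near the top of the scale. Col1a2 had 20828 at 0 h, and the highest value of any probe set on the insulin arrays was 27727. A 2-fold rise of Col1a2 could therefore not have been seen, and Col1a1, with 13802 at 0 h, had little room for one. Col2a1 and Col11a2 were also the pathway genes more than 1.5-fold apart between insulin arrays, with log2 differences of 0.73 and 0.70 at 24 h against 6 h. No member of the enzyme set showed a difference of that size. Few genes did at 24 h against 6 h, with 1.68% of all genes at least 1.5-fold higher and 0.12% lower.

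**Figure D4:**
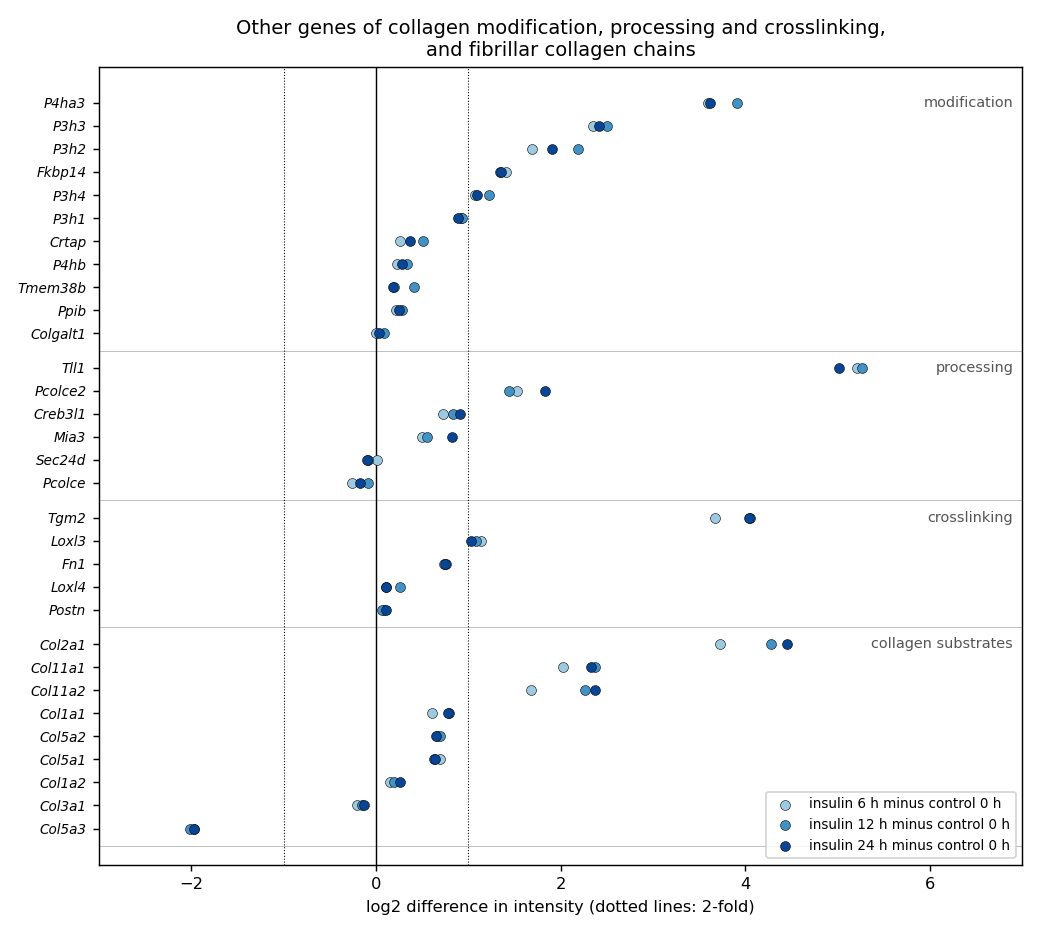
Log2 difference of each insulin array from the control 0 h array for 31 other genes of collagen modification, processing and crosslinking and for fibrillar collagen chains, 1 row per gene by its brightest probe set. Dotted lines mark 2-fold. At each time 12 genes lie at or beyond 2-fold higher and only Col5a3 lies beyond 2-fold lower.

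The genes with the most similar pattern were found by the Euclidean distance between their 3 log2 differences from 0 h and those of a member, over 11661 genes. This distance rests on 4 arrays, and the control array enters every difference. For Plod2 the nearest were Fzd6, Dkk2 and Gpnmb, at distances of 0.16, 0.17 and 0.23, and no gene lay within 0.1. For P4ha2 they were Smad6, Foxf1 and Nid2 (0.049, 0.056 and 0.061), with 5 genes within 0.1. For P4ha1 they were Cds2, Hspg2 and Uggt2, with 33 genes within 0.1, for Plod3 Ccpg1os, Foxo1 and Erp29, with 25, and for Loxl1 Cdk4, Zranb2 and Fam126a, with 28. Lox had 109 genes within 0.1 (nearest H2aw, Ppm1m and Svbp), Serpinh1 112 (Afap1, Uaca and Snx18), Plod1 242 (Xrcc1, Dip2c and Map9) and Bmp1 326 (Cep20, B3galnt1 and Mrps2). Only the members' own differences are read from this, and nothing of shared function or control.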

How the data were processed

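RNA of 4 cultures was measured on Affymetrix arrays after biotin labelling by in vitro transcription, 1 array per group, per the labels. The authors deposited linear intensities, 1 for each probe set on each array. RMA, which corrects background, normalizes arrays and summarises probes, is the tool in the submitters' processing notes, and the sources used here give neither its software and version nor a build. Values spanned 7.34 to 31292, and log2 was taken. Of 45037 probe sets that were not controls, 34945 had 1 symbol in the platform annotation, dated 2016, 932 had several and 9160 had none. Chromosomes came from RefSeq (GRCm38.p6), with a symbol for 11646 of 11661 genes.

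The members, lists and rules were chosen with earlier results of these data known. Named genes were all members, up to 4 other pathway genes per role with the largest mean difference, and the 3 nearest patterns per member. No test between groups is possible. Counting was checked on simulated data with the same noise on all 4 arrays, taken from the difference between 24 and 12 h of insulin. That check does not cover the wider spread of differences from the control array. Alternatives changed the filter, fold, scaling and probe set rule. Python 3.11.15, numpy 2.4.6, pandas 2.3.3 and statsmodels 0.14.6 were used.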

Additional observations from a re-analysis of the deposited data

Results flagged for a closer look

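Probe sets outside the comparisons carried a signal on the insulin arrays. The annotation of 1431004_at and 1452436_at names both Loxl2 and the predicted gene Gm21451, so their signal cannot be assigned to either. Probe set 1431004_at had intensities of 46.9, 4332, 3588 and 3946 at 0, 6, 12 and 24 h. Probe set 1452436_at had 19.6, 749, 611 and 618. Both were below the filter intensity at 0 h, so the low value sets the size of the difference.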

How the results depend on the processing

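No paired analysis was possible because each group has 1 array and the only replicate number they share is 1. Leaving out a replicate was likewise not possible. Counting at 1.5-fold in place of 2-fold moved the members higher than at 0 h at 12 h to 6, those lower at 12 and 24 h to 1 and 1, and the other pathway genes higher at 24 h to 19. Every other count of members or pathway genes stayed within 1.5 times its value under the alternatives run, and no member was 2-fold apart between insulin arrays under any of them. Of 162 member differences from 0 h recomputed under 6 alternatives of scaling and probe set rule, 130 moved by less than 0.1 log2 and 32 by more. The sign changed in 10, all of Plod1 or Bmp1 and all of differences under 1.5-fold. The 130 include differences that could not move. Leaving out probe sets with a letter suffix kept the brightest probe set of every member. The mean of probe sets leaves Plod3 and P4ha2 as they were, since each has 1 probe set. The largest shift was 0.48, of Loxl1 at 24 h with the mean of its probe sets. Signal over background limits what the 3 probe sets below the filter can show.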
